A study of Homo sapiens with 32 samples.

Results

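The 10 genes described here encode the machinery that adds, removes and reads the stress phosphorylation of the translation initiation factor eIF2, together with the translation repressor 4E-BP1. They are the kinases EIF2AK1 (HRI), EIF2AK2 (PKR) and EIF2AK4 (GCN2), the eIF2 subunits EIF2S1 (alpha) and EIF2S2 (beta), the eIF2B subunits EIF2B1 (alpha) and EIF2B5 (epsilon), the phosphatase subunits PPP1R15A (GADD34) and PPP1R15B (CReP), and EIF4EBP1 (4E-BP1). They were chosen by name, and each symbol matched 1 row of a count table with 60660 gene identifiers. All 10 passed the filter on low counts in every comparison.

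eIF2 brings the initiator transfer RNA to the ribosome, and eIF2B reloads it with GTP after each round. When a kinase phosphorylates the alpha subunit, eIF2 binds and blocks eIF2B, general translation falls, and a few messages such as that of the transcription factor ATF4 are translated more. HRI answers to haem shortage and mitochondrial stress, PKR to double-stranded RNA, GCN2 to amino acid shortage, and PERK (EIF2AK3, not among the 10) to misfolded protein in the endoplasmic reticulum. PPP1R15A and PPP1R15B each steer protein phosphatase 1 back to eIF2 alpha: PPP1R15A is the stress-induced subunit and PPP1R15B the constitutive one. 4E-BP1 binds the cap-binding protein eIF4E and holds back cap-dependent translation. Transcript levels were measured here, and they do not report phosphorylation.

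Poly(A)-selected RNA had been sequenced from HCT116, a human colorectal carcinoma line, in 32 libraries. All lines carried a doxycycline-inducible OsTIR1 transgene (Tet-OsTIR1-PURO in the labels), so parental and knockout cells share it. Parental cells were represented by 2 samples with 2 libraries per treatment, which gives 4 libraries in DMSO and 4 in tunicamycin. IGF2BP3 knockout (clones A3, E4 and D12) and IGF2BP2 knockout (clones B7, F6 and G6) had 6 libraries per treatment each, 2 from every clone. IGF2BP3 and IGF2BP2 encode related RNA-binding proteins. Each knockout line grew from a single sorted cell, and A3 and E4 share a guide, as do B7 and F6. Tunicamycin, which blocks N-linked glycosylation and brings on endoplasmic reticulum stress, was given to parental and IGF2BP3 knockout cells at 5 µg/mL for 4 h, and their controls received DMSO diluted 1 in 1000. The labels give neither dose nor time for clones B7, F6 and G6, so every comparison with those clones assumes that they were the same.

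Total counts ran from 16651438 to 24913021 per library. In DMSO, IGF2BP3 averaged 76.5 CPM (counts scaled to a common library size) in parental cells and 27.6 CPM in its own knockout, and IGF2BP2 averaged 176 CPM in parental cells and 86.3 CPM in its own knockout. The epithelial genes EPCAM, CDH1, KRT8, KRT18 and KRT19 were present in every library, while VIL1, CEACAM5 and LGR5 did not exceed 0.192 CPM. Of 8 markers of leukocytes, fibroblasts and endothelium, 7 did not exceed 0.796 CPM and COL1A1 ran from 4.603 to 12.3 CPM. The control libraries of clone G6 are called control in their titles and tunicamycin in 1 other label. They were placed with DMSO, and their level of the stress-induced chaperone HSPA5 (821 to 991 CPM) lay within that of the other DMSO libraries (773 to 1108 CPM) and below every tunicamycin library (7909 CPM or more). The labels do not say whether replicate libraries came from separate cultures, so p-values measure the spread between these libraries, which may be technical. Replicate 1 libraries stood apart from replicate 2 libraries, and values by replicate number are given for the genes of the tunicamycin response where calls or sizes moved with it.

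Tunicamycin changed these genes unequally. PPP1R15A rose by 2.39 to 2.49 on the log2 scale in all 3 genotypes, EIF4EBP1, EIF2S2 and PPP1R15B rose by much less, and EIF2AK2 fell slightly. EIF2AK4 had log2 changes of -0.15, -0.10 and -0.15 in parental, IGF2BP3 knockout and IGF2BP2 knockout cells, and only the last was called. EIF2AK1, EIF2S1, EIF2B1 and EIF2B5 were not called. In parental cells 5 of the 10 genes were called at an adjusted p under 0.05 (4 higher, 1 lower), where 26.8% of all genes tested were called (12.5% higher, 14.3% lower). In IGF2BP3 knockout 5 were called (4 higher, 1 lower) against a background of 33.8% (16.2% higher, 17.6% lower). In IGF2BP2 knockout 6 were called (4 higher, 2 lower) against 40.1% (19.2% higher, 20.9% lower). The same 4 genes were higher in each genotype: PPP1R15A, PPP1R15B, EIF2S2 and EIF4EBP1. The median log2 change of the 10 genes was -0.00108, 0.0197 and -0.0129 in parental, IGF2BP3 knockout and IGF2BP2 knockout cells, beside -0.00741, -0.00540 and -0.0106 over all genes tested. The plot of levels by library shows all 10 genes, and the plot of responses by genotype shows the fitted changes.

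**Figure D1:**
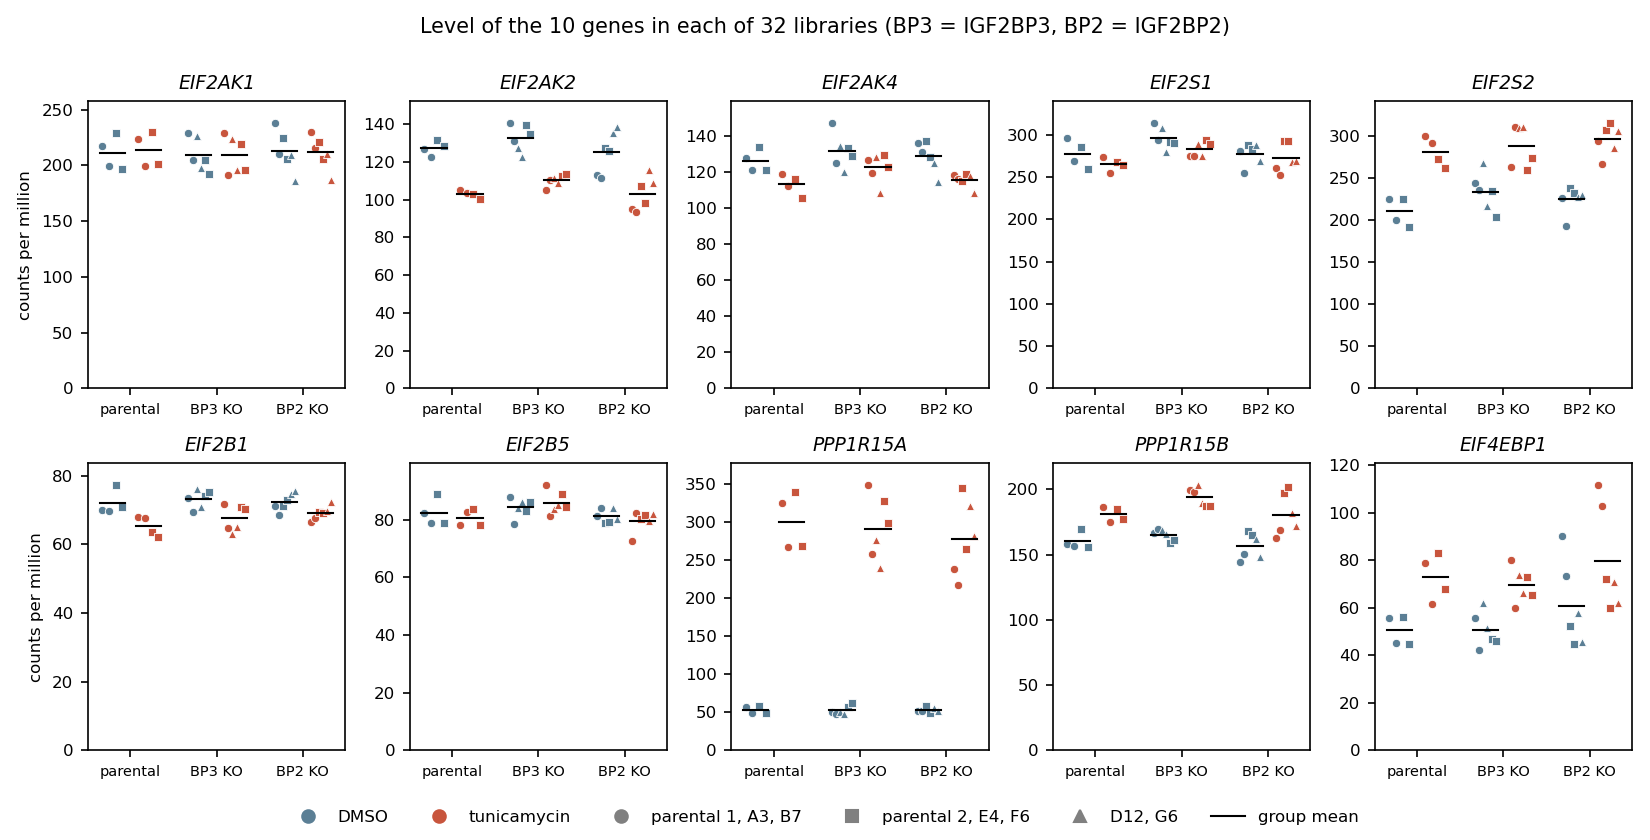
Level of each of the 10 genes in CPM (vertical axes, from 0) in all 32 libraries, by genotype (horizontal axis; BP3 and BP2 stand for IGF2BP3 and IGF2BP2 knockout) and treatment (colour), with symbols for the lines and a black bar for each group mean. PPP1R15A in tunicamycin (217 to 349 CPM) lies far above DMSO (47.3 to 62.2 CPM), and the 2 libraries of clone B7 (circles in the IGF2BP2 knockout) hold the highest EIF4EBP1 values in each treatment.

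**Figure D2:**
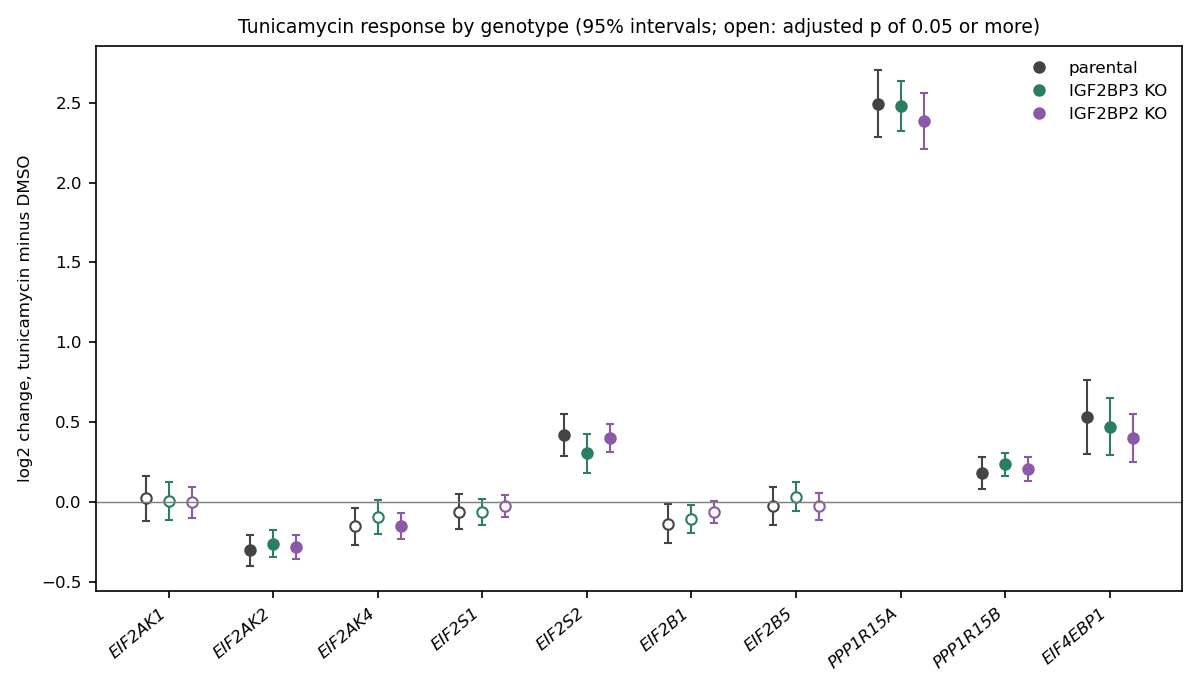
Log2 change from DMSO to tunicamycin (vertical axis) of each gene (horizontal axis) in parental, IGF2BP3 knockout and IGF2BP2 knockout cells (colour), with 95% confidence intervals from edgeR's quasi-likelihood fit. Filled points had an adjusted p under 0.05 and open points did not; PPP1R15A stands near 2.5 and every other gene between -0.30 and 0.53.

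EIF2AK2, the gene of PKR, was called lower in every genotype. Parental DMSO libraries held 127, 123, 132 and 129 CPM and parental tunicamycin libraries 105, 103, 103 and 100.5 CPM, with no overlap. In IGF2BP3 knockout the DMSO libraries ran from 123 to 141 CPM (median 133) and the tunicamycin libraries from 105 to 113 CPM (median 111), again without overlap. In IGF2BP2 knockout the ranges were 111 to 138 CPM (median 127) and 93.6 to 116 CPM (median 103); these overlapped, although tunicamycin was the lower of the pair in every line and replicate. The log2 change was -0.30 (SE 0.0438, adjusted p 0.000645), -0.26 (SE 0.0394, adjusted p 0.000125) and -0.28 (SE 0.0350, adjusted p 1.72e-05) in parental, IGF2BP3 knockout and IGF2BP2 knockout cells by the quasi-likelihood test of edgeR (Benjamini-Hochberg adjusted over all genes). It was negative in 16 of 16 pairs of libraries of 1 line and replicate number, from -0.42 to -0.17. In bulk libraries, fewer cells with a transcript and less of it per cell cannot be told apart.

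EIF2AK4 lay lower in tunicamycin in all 16 such pairs too, but by less. Its DMSO libraries in parental cells held 128, 121.4, 134 and 121.1 CPM and its tunicamycin libraries 119, 112, 116 and 106 CPM. The log2 change was -0.15 in parental cells (95% interval -0.27 to -0.04, adjusted p 0.0516), -0.10 in IGF2BP3 knockout (-0.20 to 0.01, adjusted p 0.158) and -0.15 in IGF2BP2 knockout (-0.23 to -0.07, adjusted p 0.00552), by the same edgeR test. The call in IGF2BP2 knockout was lost without clone B7 (adjusted p 0.0747 by edgeR) and without clone F6 (adjusted p 0.0701). In parental cells the gene was called lower without replicate 1 (adjusted p 0.0284) and with a filter at a mean of 1 CPM (adjusted p 0.0359). With replicate number as a term, EIF2AK4 was called lower in parental and IGF2BP3 knockout cells too. Its level was higher in replicate 1 in 15 of 16 line and treatment pairs, and its mean response was -0.15 ± 0.08 in replicate 1 and -0.12 ± 0.05 in replicate 2 (SD, n = 8 each).

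EIF2AK1, the most abundant of the 3 kinases per length, did not change detectably. Its mean was 211 ± 15.2 CPM (SD, n = 4) in parental DMSO and 213 ± 15.4 CPM (SD, n = 4) in parental tunicamycin libraries, and the log2 change was 0.02 (95% interval -0.12 to 0.16), 0.01 (-0.11 to 0.12) and -0.0020 (-0.10 to 0.09) in parental, IGF2BP3 knockout and IGF2BP2 knockout cells. The gene differed more with replicate number than with treatment. In 16 of 16 line and treatment pairs the replicate 1 library was the higher, by a mean of 0.16 on the log2 scale (0.09 to 0.26).

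The fourth kinase gene, EIF2AK3, responded on another scale. It averaged 11.4 ± 1.14 CPM in DMSO and 84.4 ± 5.18 CPM in tunicamycin in parental cells (SD, n = 4 libraries each), and rose by 2.89, 2.77 and 2.87 on the log2 scale in parental, IGF2BP3 knockout and IGF2BP2 knockout cells (adjusted p 1.58e-08, 9.88e-13 and 1.17e-13 by edgeR). Per kilobase of exon its level was 0.0567 ± 0.00734 of that of EIF2AK1 in DMSO and 0.404 ± 0.0450 in tunicamycin (SD, n = 16 libraries each). The ranges of this ratio, 0.0469 to 0.0735 and 0.328 to 0.477, did not overlap.

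The subunits of eIF2 did not move together. EIF2S2, the beta subunit, rose in every genotype. Parental DMSO libraries held 225, 200.1, 225 and 192 CPM and parental tunicamycin libraries 299.97, 291, 272 and 262 CPM, without overlap. In IGF2BP3 knockout the ranges were 203 to 268 CPM (median 235) in DMSO and 260 to 311 CPM (median 291) in tunicamycin, which overlapped. In IGF2BP2 knockout they were 193 to 238 CPM (median 229) and 267 to 316 CPM (median 300.1), which did not. The log2 change was 0.42 (SE 0.0589, adjusted p 0.000525), 0.31 (SE 0.0575, adjusted p 0.000795) and 0.40 (SE 0.0409, adjusted p 2.09e-06) in parental, IGF2BP3 knockout and IGF2BP2 knockout cells by edgeR's quasi-likelihood test. Its size differed with replicate number: over the 8 lines the mean log2 difference was 0.28 ± 0.11 in replicate 1 and 0.46 ± 0.05 in replicate 2 (SD, n = 8 each), positive in 16 of 16 pairs. The processed pseudogene EIF2S2P4 was itself counted at a mean of 3.84 CPM, and whether the EIF2S2 row holds reads of it was not tested.

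EIF2S1, the alpha subunit that carries the phosphorylation site, showed no detectable change. Parental DMSO libraries held 297, 270, 286 and 259 CPM and tunicamycin libraries 274, 256, 268 and 264 CPM, with overlap. Its log2 change was -0.06 (95% interval -0.17 to 0.05), -0.06 (-0.14 to 0.02) and -0.02 (-0.09 to 0.05) in parental, IGF2BP3 knockout and IGF2BP2 knockout cells (adjusted p 0.424, 0.258 and 0.615 by edgeR). EIF2S3, the gamma subunit, rose by 0.15, 0.12 and 0.13 on the log2 scale in the same order (adjusted p 0.0408, 0.0236 and 0.00803 by edgeR). Per kilobase of exon, EIF2S2 stood at 1.68 ± 0.0933 times EIF2S1 in DMSO and at 2.24 ± 0.164 times in tunicamycin (SD, n = 16 libraries each). The ratio ran from 1.49 to 1.85 in DMSO and from 1.88 to 2.42 in tunicamycin, so all 16 tunicamycin libraries lay above all 16 DMSO libraries.

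Neither eIF2B subunit was called in any genotype in the reported fits, but the EIF2B1 result depended on the fit. EIF2B1 held 69.9, 69.8, 77.4 and 70.8 CPM in parental DMSO libraries and 68.0, 67.6, 63.7 and 62.2 CPM in parental tunicamycin libraries. Its log2 change was -0.14 (95% interval -0.26 to -0.01), -0.11 (-0.20 to -0.02) and -0.06 (-0.13 to 0.01) in parental, IGF2BP3 knockout and IGF2BP2 knockout cells, with adjusted p 0.102, 0.0612 and 0.143 by edgeR. With all 32 libraries in one fit the gene was called lower in parental (adjusted p 0.0226) and IGF2BP3 knockout cells (adjusted p 0.0212), and in the latter also with a filter at a mean of 1 CPM (adjusted p 0.0457). With replicate number as a term, EIF2B1 was called lower in both of these genotypes as well. The value was negative in all 16 pairs, from -0.28 to -0.02, with a mean of -0.11 ± 0.10 in replicate 1 and -0.09 ± 0.05 in replicate 2 (SD, n = 8 each). EIF2B5, the catalytic subunit, averaged 82.2 ± 4.73 CPM (SD, n = 4) in parental DMSO and 80.6 ± 2.96 CPM (SD, n = 4) in parental tunicamycin libraries, and its log2 change was -0.02, 0.03 and -0.03 in the same order of genotypes, with 7 of 16 pairs positive. Of the remaining subunits, EIF2B4 had similar log2 changes of -0.13, -0.14 and -0.16 in parental, IGF2BP3 knockout and IGF2BP2 knockout cells (adjusted p 0.161, 0.0842 and 0.0170 by edgeR), and EIF2B2 and EIF2B3 were not called.

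The phosphatase subunits gave the largest and one of the smallest increases. PPP1R15A (chromosome 19, 48872392 to 48876057, plus strand, GRCh38) held 56.7, 49.1, 58.5 and 48.8 CPM in the parental DMSO libraries and 324, 267, 339 and 268 CPM in the parental tunicamycin libraries. In IGF2BP3 knockout the DMSO libraries ran from 47.3 to 62.2 CPM (median 50.4) and the tunicamycin libraries from 239 to 349 CPM (median 287). In IGF2BP2 knockout the ranges were 48.8 to 57.9 CPM (median 51.8) and 217 to 345 CPM (median 273). No tunicamycin library overlapped any DMSO library. The log2 change was 2.49 (SE 0.0935, adjusted p 8.29e-08), 2.48 (SE 0.0740, adjusted p 6.73e-12) and 2.39 (SE 0.0821, adjusted p 1.78e-11) in parental, IGF2BP3 knockout and IGF2BP2 knockout cells by edgeR's quasi-likelihood test. By replicate number the mean log2 difference over the 8 lines was 2.52 ± 0.16 in replicate 1 and 2.36 ± 0.14 in replicate 2 (SD, n = 8 each).

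PPP1R15B (chromosome 1, 204403387 to 204411791, minus strand, GRCh38) moved little. Parental libraries held 158, 157, 169.7 and 156 CPM in DMSO and 187, 175, 185 and 177 CPM in tunicamycin, without overlap. In IGF2BP3 knockout the ranges were 159 to 169.8 CPM (median 167) and 187 to 204 CPM (median 194), without overlap, and in IGF2BP2 knockout they were 144 to 168 CPM (median 156) and 163 to 202 CPM (median 177), which overlapped. The log2 change was 0.18 (SE 0.0443, adjusted p 0.0133), 0.24 (SE 0.0339, adjusted p 7.55e-05) and 0.21 (SE 0.0353, adjusted p 0.000264) by the same test, and positive in 16 of 16 pairs. The parental call was lost in 4 of 12 alternative fits: those without replicate 1 or 2 of parental sample 1, without replicate 2 of parental sample 2, and without a filter on low counts (adjusted p up to 0.135). Per kilobase of exon, PPP1R15A stood at 0.556 ± 0.0527 times PPP1R15B in DMSO and at 2.62 ± 0.340 times in tunicamycin (SD, n = 16 libraries each), so the order of the pair was reversed in all 16 tunicamycin libraries (2.13 to 3.09 times, beside 0.473 to 0.651 times in DMSO).

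Because these subunits of the same phosphatase responded so unequally, the stretches of their promoters that hold a searched motif are shown, each on the strand of its gene and wholly upstream of the RefSeq start, from RefSeq on GRCh38.p14. Capitals mark the motif. The PPP1R15A stretch is chr19:48872291-48872390 (bases -130 to -31) and the PPP1R15B stretch is chr1:204411968-204412067 (bases -250 to -151).
PPP1R15A: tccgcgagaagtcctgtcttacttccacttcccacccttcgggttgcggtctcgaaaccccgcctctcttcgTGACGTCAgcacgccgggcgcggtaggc
PPP1R15B: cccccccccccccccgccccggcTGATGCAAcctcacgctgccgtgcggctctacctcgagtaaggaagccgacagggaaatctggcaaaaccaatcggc
The PPP1R15A stretch holds the cyclic AMP response element TGACGTCA, first base at -58, a palindrome that 1.85% of 35116 RefSeq promoter windows of the same length hold. That motif was added to the search after its sequence had been seen. The PPP1R15B stretch holds a match to TGATGNAA, the composite element read by C/EBP and ATF factors, first base at -227, on the strand of the gene; 3.62% of windows hold it on either strand. Promoter sequences were matched for 7 of the 10 genes, and neither the endoplasmic reticulum stress element (CCAAT and CCACG with 9 bases between them, 0.0769% of windows) nor the core TGACGTGG (0.729%) was found on either strand in those 7 windows. These matches describe letters in a window and were not tested for binding.

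EIF4EBP1 rose in every genotype and every pair of libraries. Parental DMSO libraries held 55.5, 45.2, 56.3 and 44.9 CPM and parental tunicamycin libraries 78.9, 61.5, 83.1 and 67.8 CPM, without overlap. IGF2BP3 knockout ran from 42.1 to 61.99 CPM (median 49.0) in DMSO and from 59.8 to 80.0 CPM (median 69.5) in tunicamycin. The log2 change was 0.53 (SE 0.104, adjusted p 0.00394), 0.47 (SE 0.0824, adjusted p 0.000429) and 0.40 (SE 0.0700, adjusted p 0.000360) in parental, IGF2BP3 knockout and IGF2BP2 knockout cells by edgeR's quasi-likelihood test, and from 0.25 to 0.64 over the 16 pairs. The replicate 1 library was the higher in 16 of 16 line and treatment pairs, by a mean of 0.26 on the log2 scale, while the mean response was 0.44 ± 0.14 in replicate 1 and 0.47 ± 0.07 in replicate 2 (SD, n = 8 each). The related repressor EIF4EBP2 fell, by 0.40, 0.32 and 0.37 on the log2 scale in the same order of genotypes (adjusted p 0.000869, 2.70e-05 and 8.50e-05 by edgeR).

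Tunicamycin changed the order of the 10 genes per length. In DMSO EIF2S2 was the highest at a mean of 84.5 CPM per kilobase of exon, followed by EIF4EBP1 (50.7), EIF2S1 (50.4), EIF2AK1 (38.0), PPP1R15B (30.8), EIF2B1 (20.02), PPP1R15A (17.1), EIF2AK2 (11.96), EIF2B5 (11.5) and EIF2AK4 (10.8). The ranges over 16 libraries overlapped between EIF2S2 and EIF4EBP1, between EIF4EBP1 and EIF2S1, between EIF2B1 and PPP1R15A, and among EIF2AK2, EIF2B5 and EIF2AK4, and not between the other neighbours. In tunicamycin PPP1R15A rose to rank 2 of the 10 at 93.2 CPM per kilobase (70.3 to 113), below EIF2S2 at 109 (97.8 to 119) with overlapping ranges, and EIF4EBP1 followed at 69.2. EIF2AK2 moved to the last place at 9.84, level with EIF2AK4 at 9.85 and overlapping it.

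**Figure D3:**
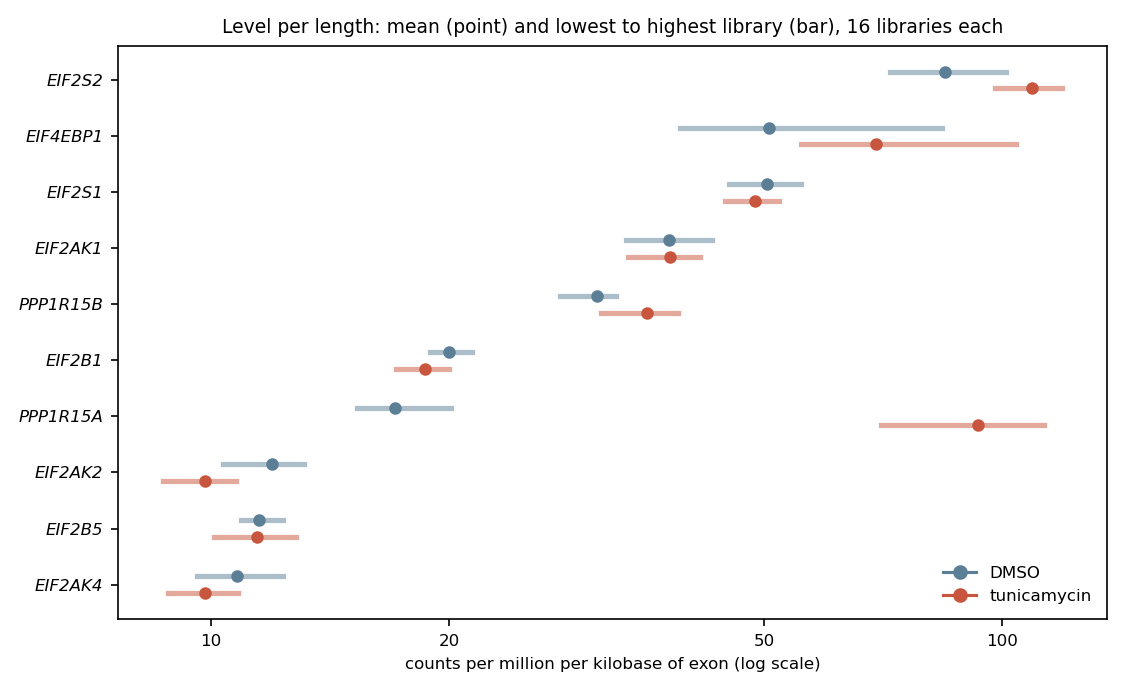
Level in CPM per kilobase of annotated exon (horizontal axis, log scale) of each of the 10 genes (vertical axis, ordered by DMSO mean); points are means and bars run from the lowest to the highest of 16 libraries in DMSO or tunicamycin (colour). PPP1R15A moves from 17.1 to 93.2 and no other mean moves as far.

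The surrounding pathway was described with a list of 25 other genes, of which 24 passed the filter. In parental cells 10 were called (9 higher, 1 lower), in IGF2BP3 knockout 12 (9 higher, 3 lower) and in IGF2BP2 knockout 15 (9 higher, 6 lower), where 26.8%, 33.8% and 40.1% of all genes tested were called. The 9 higher genes were the same in each: EIF2AK3, DNAJC3, EIF5, NCK1, EIF2A, PPP1CB, DELE1, IMPACT and EIF2S3. DNAJC3, whose product has been described as an inhibitor of eIF2 kinases, rose by 2.56, 2.46 and 2.68 on the log2 scale. EIF5, which encodes the GTPase-activating protein of eIF2, rose by 0.65, 0.62 and 0.70. NCK1, whose adaptor protein is known to help dephosphorylate eIF2 alpha, rose by 0.42, 0.36 and 0.49, and PPP1CB, a catalytic subunit of protein phosphatase 1, by 0.24, 0.23 and 0.25. The other catalytic subunits, PPP1CA and PPP1CC, were not called. IMPACT, which encodes an inhibitor of GCN2, rose by 0.21, 0.20 and 0.21. The median log2 change of the 24 genes was 0.01, 0.05 and 0.02, near that of all genes tested.

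A list of ATF4 and 9 of its known targets covers transcripts known to rise after eIF2 phosphorylation. All 8 genes that passed the filter were called higher in each genotype, and VLDLR and NUPR1 did not pass it. Of all genes tested, 12.5%, 16.2% and 19.2% were called higher in parental, IGF2BP3 knockout and IGF2BP2 knockout cells. The list was chosen for genes known to rise, with earlier results of these data known, so its rise is a description. The median log2 change of these 8 genes was 3.90, 3.83 and 3.82 in parental, IGF2BP3 knockout and IGF2BP2 knockout cells. ATF4 itself rose by 1.25, 1.15 and 1.12, and DDIT3, which encodes CHOP, by 6.81, 6.45 and 6.54. PPP1R15A, at 2.49, 2.48 and 2.39, lay below the median of this list and above ATF4, and EIF4EBP1 lay below every gene of it.

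**Figure D4:**
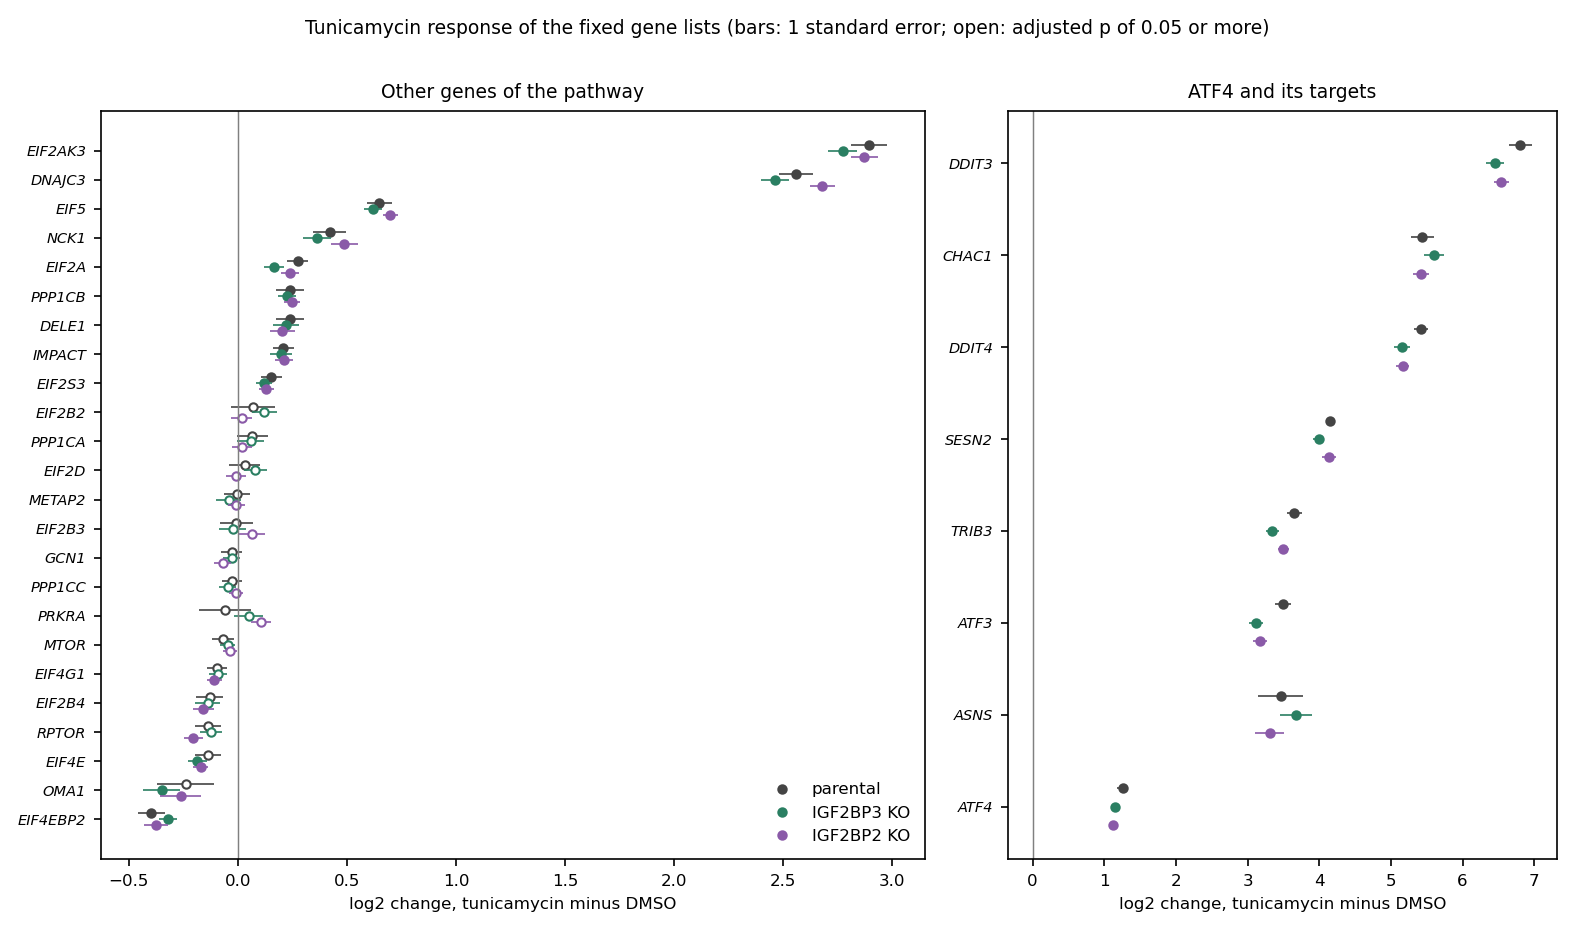
Log2 change from DMSO to tunicamycin (horizontal axes) of 24 other genes of the eIF2 pathway (left) and of ATF4 and 7 of its targets (right), by genotype (colour), with bars of 1 standard error and open points for an adjusted p of 0.05 or more. EIF2AK3 and DNAJC3 stand apart from the other pathway genes, and all 8 genes on the right rose in all 3 genotypes.

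In unstressed cells the 10 genes did not differ detectably between genotypes. Against parental DMSO libraries, 0 of 10 were called in IGF2BP3 knockout, where 1.61% of all genes were (0.515% higher, 1.10% lower), and 0 of 10 in IGF2BP2 knockout, where 0.0137% were. Between the knockouts 0 of 10 were called, against 0.589% (0.260% higher in IGF2BP3 knockout, 0.330% lower). By edgeR the lowest adjusted p among the 10 was 0.332, 0.983 and 0.326 in that order, and an unadjusted p under 0.05 was reached by 1994, 690 and 1995 genes of the whole table. The parental libraries are shared by the first pair of comparisons. These fits took libraries of the same line as independent, so the intervals below may be too narrow for a difference between genotypes. With counts summed per line, 0 of 10 were called in each comparison too. EIF2S2 had the largest value in IGF2BP3 knockout, with a log2 difference of 0.15 from parental cells (95% interval 0.01 to 0.29, unadjusted p 0.0410, adjusted p 0.332 by edgeR). In IGF2BP2 knockout it was EIF4EBP1, at 0.27 (-0.12 to 0.65, adjusted p 0.983 by edgeR), and that value was -0.0061 (-0.22 to 0.21) without clone B7. For PPP1R15A the difference was -0.03 (-0.20 to 0.15) in IGF2BP3 knockout and -0.01 (-0.15 to 0.13) in IGF2BP2 knockout. Over all 10 genes the intervals ran from -0.20 to 0.29 for IGF2BP3 knockout, from -0.16 to 0.65 for IGF2BP2 knockout and from -0.59 to 0.21 between the knockouts.

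The interaction term of genotype with treatment asks whether a knockout altered the response. By edgeR 0 of 10 genes were called for IGF2BP3 knockout against parental cells, for IGF2BP2 knockout against parental cells or between the knockouts, with a background of 0% of all genes in each, and 255, 213 and 271 genes had an unadjusted p under 0.05. The response of PPP1R15A differed from the parental one by -0.0079 (95% interval -0.27 to 0.26) in IGF2BP3 knockout and by -0.11 (-0.39 to 0.18) in IGF2BP2 knockout, and between the knockouts by 0.10 (-0.14 to 0.34). For EIF4EBP1 the differences were -0.05 (-0.36 to 0.25), -0.13 (-0.43 to 0.16) and 0.08 (-0.16 to 0.33). Over the 10 genes and the 3 comparisons, differences ran from -0.13 to 0.10 and intervals from -0.43 to 0.34. Each interval holds the differences that its own fit does not exclude, and some are much narrower than the pooled range. For IGF2BP3 knockout against parental cells that of PPP1R15B ran from -0.04 to 0.17 and that of EIF2AK2 from -0.07 to 0.16. The line was a term in these fits, but libraries of the same line were still taken as independent measures of the response. The intervals, narrow ones included, may therefore be too narrow for a difference of response between genotypes. DESeq2 also called 0 of 10 in each of the 3 comparisons.

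Clones of 1 knockout were then compared with each other. Among the IGF2BP2 clones, over both treatments, 3 of 10 genes were called by edgeR's quasi-likelihood test where 24.9% of all genes were, a share near the background. These were EIF4EBP1 (difference between the highest and the lowest clone 0.73 on the log2 scale, adjusted p 2.61e-05), EIF2AK2 (0.27, adjusted p 0.00100) and PPP1R15B (0.22, adjusted p 0.00549). Clone B7 was the highest clone for EIF4EBP1 and the lowest for EIF2AK2 and PPP1R15B, but only for EIF4EBP1 did it stand apart. Mean log2 CPM in B7, F6 and G6 was 6.55, 5.82 and 5.87 for EIF4EBP1. For EIF2AK2 it was 6.69, 6.83 and 6.95, nearly evenly spaced. For PPP1R15B it was 7.29, 7.51 and 7.37, where F6 lay further from G6 than B7 did. Without B7 none of the 10 was called (adjusted p 0.742, 0.118 and 0.106 for EIF4EBP1, EIF2AK2 and PPP1R15B by edgeR). The EIF2AK2 call was also lost without clone G6 (adjusted p 0.0589) and the PPP1R15B call without clone F6 (adjusted p 0.317), without replicate 2 (adjusted p 0.0563) and without a filter on low counts (adjusted p 0.0655). Without replicate 1, 8 of the 10 were called. The share of all genes called in that fit is not given here, so the 8 are not read as a result about these genes. Among the IGF2BP3 clones 0 of 10 were called, against 7.27% of all genes, of which 2917 had an unadjusted p under 0.05. The lowest value there was that of PPP1R15A (difference 0.28, unadjusted p 0.0214, adjusted p 0.154 by edgeR), for which clone E4 held the 2 highest DMSO values of that knockout, 56.9 and 62.2 CPM. In tunicamycin, replicate 1 of clone A3 (349 CPM) lay above both E4 libraries (327 and 298 CPM). PPP1R15A was called without clone A3 (difference between E4 and D12 0.28, adjusted p 0.00804 by edgeR) and without a filter on low counts (0.28, adjusted p 0.0197). It was also called without replicate 1 (0.34, adjusted p 7.76e-05 by edgeR), a fit with 1 library per clone and treatment. That fit called 3 of the 10 genes and 2946 of 15110 genes tested, beside 1073 of 14760 in the reported fit.

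The EIF4EBP1 difference was that of 1 clone. B7 held 90.1 and 73.4 CPM in DMSO, where the other 14 DMSO libraries ran from 42.1 to 61.99 CPM, and 112 and 103 CPM in tunicamycin, where the other 14 ran from 59.7 to 83.1 CPM. Over both treatments B7 averaged 94.5 CPM, F6 57.2 CPM and G6 59.1 CPM. B7 and F6 were made with the same guide, and G6 with another. The guides read 5′ to 3′ as the plus strand of GRCh38 chromosome 3, opposite to the IGF2BP2 transcript, and are shown because B7 and F6 share 1 of them.
B7 and F6: gagctgccggaggtcgtcgg
G6: aggcgtagccggacttcagc
The first matches chr3:185824895-185824914 and the second chr3:185824837-185824856, and F6, which shares its guide with B7, had EIF4EBP1 at 44.6 and 52.5 CPM in DMSO, within the range of the other lines. The part of the guide in the EIF4EBP1 difference was not tested.

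EIF4EBP1 lies on chromosome 8 (38030341 to 38060365, plus strand, GRCh38), and in B7 it did not stand apart alone. Over 356 expressed genes of that chromosome, the median level in B7 was 0.47 higher on the log2 scale than the mean of the other 7 lines, and 349 of the 356 genes lay above it. EIF4EBP1 itself lay 0.66 above. The other 22 chromosome medians of B7 ran from -0.04 to 0.02, and the chromosome 8 medians of the other 7 lines from -0.10 to -0.05. Genes that start before EIF4EBP1 on the chromosome had a median of 0.54 (90 genes) and those that start after it 0.43 (265 genes). Genes with levels most like those of EIF4EBP1 were sought among 10053 expressed genes with a symbol, less the members, the pathway list and the ATF4 list. Over the 16 means of line and treatment they were REEP4, POLR3D and MTFR1 (Pearson's r 0.972, 0.959 and 0.958). After the treatment mean was taken off they were CCAR2, PTDSS1 and GRINA (0.984, 0.983 and 0.974). All 6 are chromosome 8 genes. The points share libraries and 1 outlying line, so these correlations are a description. The part of this chromosome-wide level in the EIF4EBP1 difference was not tested. The other 9 genes lie on other chromosomes, and in B7 they stood between -0.20 (EIF2AK2, PPP1R15A) and 0.10 (EIF2AK1) from the mean of the other lines.

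**Figure D5:**
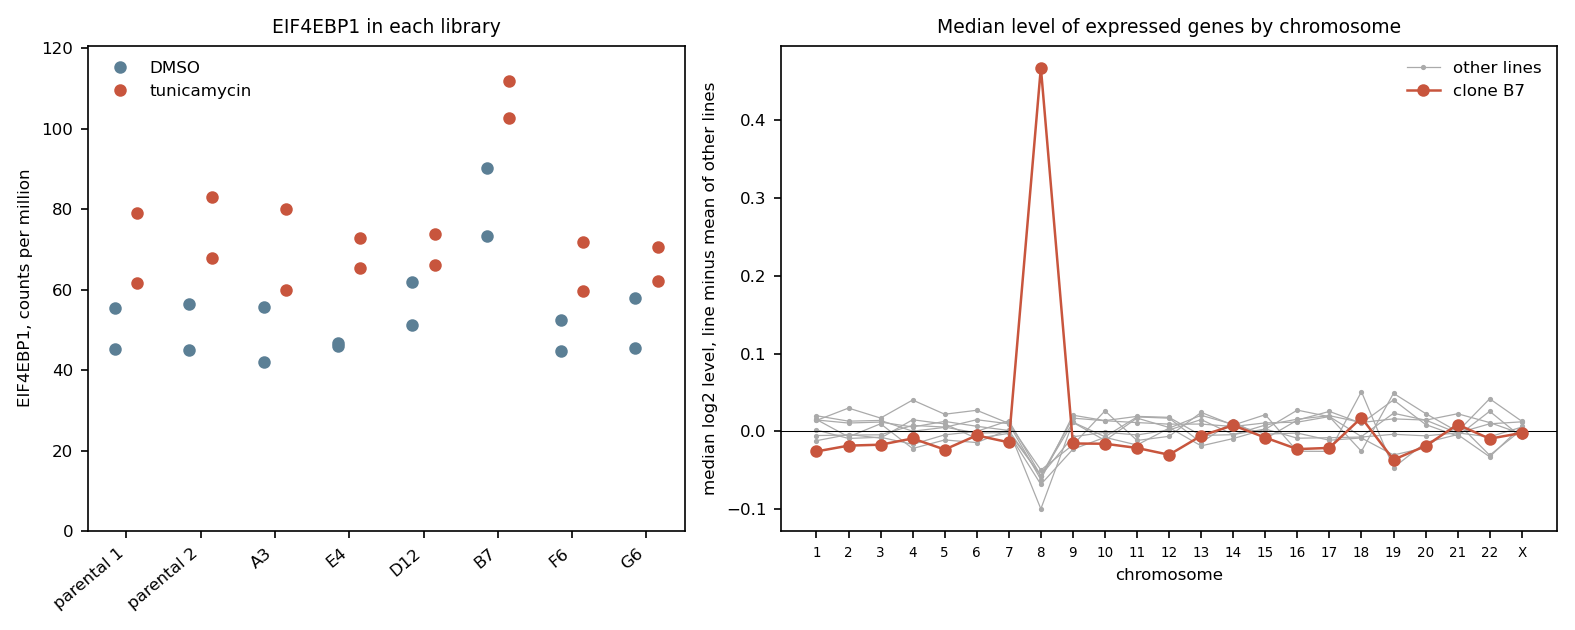
Left, EIF4EBP1 in CPM (vertical axis, from 0) in each library of the 8 lines (horizontal axis) in DMSO or tunicamycin (colour). Right, the median over expressed genes of the log2 level in 1 line minus the mean of the other 7 (vertical axis) for each chromosome (horizontal axis), with B7 in red and the other lines in grey. B7 lies above the other lines for EIF4EBP1 in both treatments and at 0.47 for chromosome 8, where the other lines lie between -0.10 and -0.05.

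The response of the clones was also compared. No gene of the 10 was called for a difference of response among the clones of either knockout (0 of 10 for IGF2BP3 and 0 of 10 for IGF2BP2 by edgeR, with a background of 0% of all genes in both, and 93 and 222 genes at an unadjusted p under 0.05). The PPP1R15A response was lowest in B7, at 2.21 and 2.06 on the log2 scale in its replicates, beside 2.26 to 2.78 in the other 14 pairs. Its difference among the IGF2BP2 clones was 0.37 (unadjusted p 0.0911, adjusted p 1 by edgeR). The median response of the ATF4 list was 3.66 in B7, within the range of the other lines (3.62 to 4.07), and HSPA5 rose by 3.48 there, the most of the 8 lines (3.06 to 3.44 in the others). EIF4EBP1 rose by 0.31 and 0.48 in B7, within the range of the other lines, so its higher level in that clone was present in both treatments.

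The genes most like the other members over the same 16 means were named by the same measure. Members, the pathway list and the ATF4 list were again left out, so each name below is the closest gene outside them only. PPP1R15A was most like STC2, DERL2 and MAP1LC3B (Pearson's r 0.998, 0.996 and 0.996) and EIF2S2 most like CCDC59, GCLC and RBM39 (0.985, 0.978 and 0.978), values that mostly hold the contrast of tunicamycin and DMSO. PPP1R15B was most like ZFP36 (0.970), EIF2AK2 most like EVPL (0.961) and EIF2AK4 most like ATMIN (0.945). For EIF2S1, EIF2B5, EIF2AK1 and EIF2B1, which had no called response, the highest values were 0.922 (BCCIP), 0.896 (MTA2), 0.885 (PDLIM1) and 0.851 (RNF217). Several members share exon sequence with a gene on the opposite strand in the annotation, and whether the counting used strand is not stated: EIF2AK1 shares 532 bases with AIMP2, EIF2B1 shares 536 with DDX55 and 28 with GTF2H3, EIF2S1 shares 269 with ATP6V1D, EIF2B5 shares 68 with an antisense gene, and EIF2AK2 shares 401 with a processed pseudogene and 35 with GPATCH11. The levels of these 5 genes are uncertain to that extent.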

How the data were processed

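Poly(A) RNA of 32 libraries was prepared with a directional kit and read as pairs of 100 bases, per the labels' protocols. The authors deposited 1 table of raw counts, whole numbers, for each gene and library. STAR 2.7.5c and the build hg38 are named in the submitters' processing notes; the counting tool, annotation and strand setting are not given in the sources used here. Libraries were grouped by title. The genes and lists were chosen with earlier results of these data known.

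Each comparison was fitted to its own libraries with edgeR 4.0.16 in R 4.3.3 (TMM, filterByExpr, quasi-likelihood test, Benjamini-Hochberg adjustment over all genes tested, threshold 0.05). The line was a term in treatment and interaction fits, treatment was one in clone fits, and genotype fits had no covariate. The SE is the one implied by the F statistic. CPM are TMM-normalized over all 32 libraries, with a prior count of 2 for log2 values, and lengths and positions come from GENCODE on GRCh38. Named were the 10 genes, the fixed lists and the genes most alike. For each member, the latter were the 3 with the highest Pearson's r among genes outside the members, pathway list and ATF4 list. They also had a mean of at least 5 CPM. Genes of chromosome medians passed the same minimum, and those medians were added after the data had been seen. Replicate libraries differed by more than counting noise (chi-square per degree of freedom 4.59 to 25.2 over 16 pairs), so none was merged. Scripts were tested on simulated data. DESeq2 1.42.0, other filters and scalings, a replicate block and left-out libraries were alternatives. Figures used matplotlib 3.10.9.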

Additional observations from a re-analysis of the deposited data

Results flagged for a closer look

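In 60 groups of 4 to 6 libraries (10 genes in 6 groups of genotype and treatment), 4 held a library far from the others by Dixon's ratio, and chance alone flags about 1 group in 20. EIF2B1 in parental DMSO had replicate 1 of parental sample 2 at 77.4 CPM, above the other 3 libraries (69.8 to 70.8 CPM). The same library was the high one for PPP1R15B, at 169.7 CPM beside 156 to 158 CPM. EIF2S2 in IGF2BP2 knockout DMSO had replicate 2 of clone B7 lowest, at 193 CPM, and EIF2B5 in IGF2BP2 knockout tunicamycin had replicate 1 of clone B7 lowest, at 72.6 CPM. The part of these libraries in the group differences was not tested beyond the fits that leave them out.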

How the results depend on the processing

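The count of members called for each of the 3 tunicamycin responses, the 3 genotype comparisons, the 3 interactions and the 2 clone-by-treatment tests stayed within 1.5 times of the reported count in every alternative run, and no called change reversed its sign. Clone counts moved. Among the IGF2BP3 clones, 0 became 1 without a filter on low counts and 1 with the replicate block (PPP1R15A, adjusted p 0.0398 by edgeR), and ran from 0 to 3 when a clone or a replicate number was left out. Among the IGF2BP2 clones, 3 became 7 with the replicate block and ran from 0 (without clone B7) to 8 (without replicate 1) when a clone or a replicate number was left out. Calls over all genes moved too. Among the IGF2BP3 clones they were 1073 of 14760 in the reported fit, 2073 of 14760 with the block and 2946 of 15110 without replicate 1. Those of the IGF2BP2 alternatives are not given here, so their counts are not read as results about the members. The cause of these moves was not tested. Of 362 alternative values of the genes called in a reported fit or in any alternative, a choice that leaves out genes never called, 321 kept their side of the threshold, 13 lost a call and 28 gained one. With the block, EIF2AK4 (adjusted p 0.00380 and 0.0442 by edgeR) and EIF2B1 (0.0333 and 0.0383) were also called lower in parental and IGF2BP3 knockout cells. That gave 7 members in each, and the share of all genes called in those fits is not given here. Replicate numbers were not taken as pairing, since the labels do not say what they mark and not every correlation passed the limit of 0.1. Deviations of same-numbered libraries correlated at over 0.1 in 119 of 120 pairs of line and treatment. The lowest r was 0.0878 and the median 0.375. A shift shared by libraries of 1 replicate number therefore stays in the spread of the reported fits, and in their SE and p-values. Clone-by-treatment fits without 1 replicate number had no residual degrees of freedom and were not run. The lowest count of a member in any library was 916 (EIF4EBP1).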
